A study of Mus musculus with 6 samples.

Results

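The genes of Wnt signalling described here are 44 of the 20163 genes with a symbol on the arrays. They were taken by name: all 19 Wnt ligands, all 10 Frizzled receptors, and 15 genes that serve as transcriptional targets or feedback regulators of the pathway (Axin2, Lef1, Tcf7, Nkd1, Nkd2, Sp5, Notum, Lgr5, Lgr6, Dkk1, Znrf3, Wif1, Apcdd1, Sfrp2 and Ccn4). Every one of the 44 was measured, and 1 of them, Wnt4, by more than 1 probe set. The cells were adult muscle stem cells of female C57BL/6J mice aged 6 to 8 weeks, grown on Matrigel for 2 days. Both groups then spent 6 h without serum in the presence of ALK3-Fc at 200 ng/ml, a soluble BMP receptor that captures BMPs carried over from serum. The 3 BMP6 cultures received 100 ng/ml BMP6 for 1 h, and the 3 vehicle cultures received the solvent of BMP6 for the same 1 h. Each culture gave 1 array, so the number of arrays limits the precision. Nothing was knocked out or added by transgene, and the cells stand for a culture expanded outside the muscle, without its fibres and other niche cells. The source names give mice 1, 2 and 3 for the BMP6 cultures and mice 1, 2 and 2 for the vehicle cultures.

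Wnt proteins are lipid-modified, secreted ligands that bind a Frizzled receptor together with the co-receptors LRP5 or LRP6. In the canonical branch this stops the destruction complex of Axin, APC and GSK3 from degrading beta-catenin, which then enters the nucleus and drives targets through the TCF and LEF factors. Several of these targets, Axin2, Nkd1, Notum, Znrf3 and Dkk1 among them, feed back to restrain the pathway. Other branches act through cell polarity proteins or calcium. In skeletal muscle, Wnt signals are known to act on stem cell self-renewal, polarity, quiescence and the timing of differentiation.

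The values are log2 RMA expression, in which a difference of 1 is a 2-fold difference, and values given for a gene follow the order of replicates 1, 2 and 3. The files hold no detection call, so a level was read against 1116 chemosensory receptor genes (olfactory, vomeronasal, taste and trace amine receptors), presumed silent in muscle cells. A gene is called detected here where it lay above the 95th percentile of those genes on all 6 arrays, a value between 5.47 and 5.57 on the different arrays. Of the chemosensory genes themselves, 32 (2.87%) met this rule, and of all genes 13008 (64.5%) did. The stricter 99th percentile lay between 6.09 and 6.31, and the median of all genes between 6.38 and 6.45. Probe sets differ in how well they hybridise, so no member is ranked against another by its level. In such bulk RNA, fewer cells expressing a gene and less RNA per cell cannot be told apart.

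Markers of muscle stem cells were high on every array, as the label of the cells implies. Of 11 muscle stem cell markers 9 were detected, among them Pax7, the transcription factor by which muscle stem cells are recognised, at 8.94, 8.94 and 8.84 with BMP6 and 8.75, 8.86 and 8.82 with vehicle. Myod1, the myogenic determination factor, stood at 12.30, 12.30 and 12.25 with BMP6 and 12.14, 12.05 and 12.18 with vehicle. Both lay far above the reference level in both groups. The exceptions were Calcr and Chodl, over the 95th percentile on 0 arrays. Of 8 immune markers 3 were detected, and of 8 endothelial markers 2, with Ptprc, Lyz2, Cdh5 and Tek over the 95th percentile on 0 arrays and Cd68 and Vwf on all 6. Of 8 Schwann cell markers 6 were detected, Sox10 among them, and of 8 pericyte and smooth muscle markers 6, including Cspg4 and Notch3. The fibro-adipogenic markers are given with Sfrp2 further on. No gene of these lists was called between BMP6 and vehicle, and the part of other cell types in the values of the members was not tested.

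Among the members, 34 of 44 (77.3%) were detected, against 64.5% of all genes. Of the rest, 5 passed the 95th percentile on 1 to 5 arrays, and 5 on none. By class the detected members were 12 of 19 ligands (63.2%), 9 of 10 receptors (90%) and 13 of 15 targets (86.7%). At the 99th percentile the count was 20 of 44 (45.5%, against 50.4% of all genes), of which 5 were ligands, 8 receptors and 7 targets. Whether the classes differ in these shares was not tested. After 1 h of BMP6 no member was called higher or lower (limma, adjusted p under 0.05 over all genes), in an experiment where 17 of 20163 genes (0.0843%) were called. No member had an unadjusted limma p under 0.05 either, where 639 of all genes (3.17%) did. That count was 1 or 2 under 12 of 16 alternatives, and 1, Fzd1, with the replicate block.

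**Figure D1:**
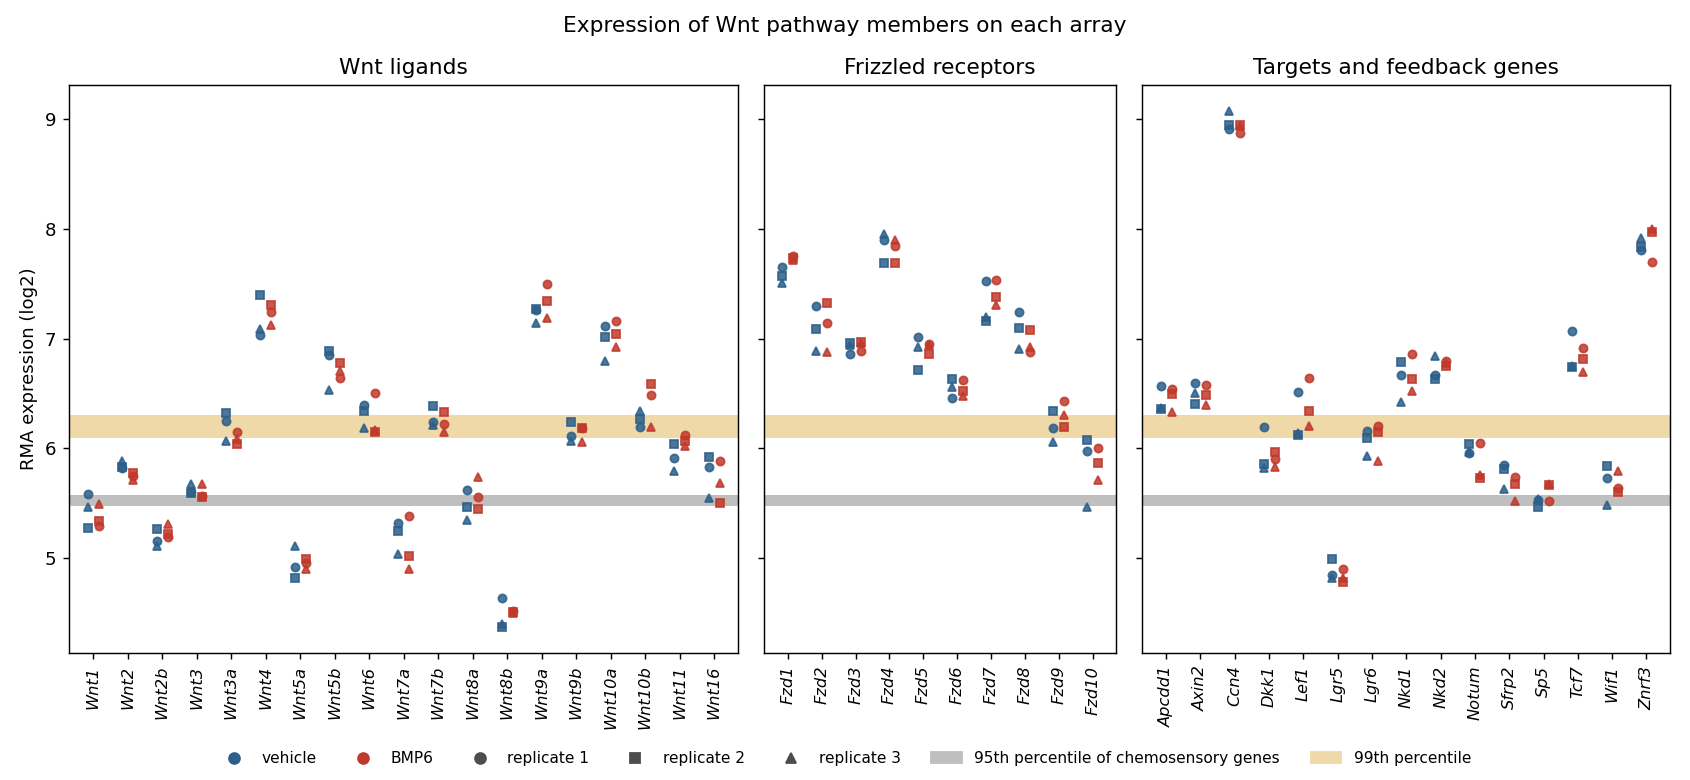
RMA expression (log2, vertical axis) of each of the 44 genes, with 3 vehicle arrays in blue and 3 BMP6 arrays in red, the replicate shown by the symbol. The grey and tan bands give the range over arrays of the 95th and 99th percentiles of chemosensory receptor genes; 34 genes lie above the former on all 6 arrays and 20 above the latter, and blue and red symbols overlap for all genes but Fzd1 and Wnt2.

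To show what the promoters of these genes hold, the 250 bases before the start site were searched in the RefSeq promoter table of build GRCm38.p6, in which 31 of the 44 genes matched with 38 promoters. The TCF/LEF core was searched as CTTTGAT or CTTTGAA on both strands. It was found in 4 of 38 member promoters (10.5%) and in 7.48% of all promoters. The GC-rich element bound by the SMADs of BMP signalling was searched as GGCGCC, which reads the same on both strands. It was found in 13 of 38 (34.2%), belonging to 11 genes, and in 9.59% of all promoters. The median GC content of these windows was 66.4% for members and 52.4% for all promoters. Of the BMP response genes described further on, only 2 promoters could be searched. This element was found in 0 of these 2, whose median GC content was 64.8%. A match only describes the letters in this window. The 6 stretches below show the 4 members with a TCF/LEF core and a pair with the SMAD element, 5′ to 3′ along the gene, with the motif in capitals (in Wnt11 the TCF/LEF core lies on the opposite strand).
Sp5 (chr2:70474794-70474850, plus strand): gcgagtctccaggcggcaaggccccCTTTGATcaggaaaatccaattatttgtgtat
Dkk1 (chr19:30549582-30549638, minus strand): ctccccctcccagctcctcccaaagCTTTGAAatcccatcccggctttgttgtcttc
Wnt5b (chr6:119449426-119449482, minus strand): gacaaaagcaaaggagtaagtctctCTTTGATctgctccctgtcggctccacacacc
Wnt11 (chr7:98835036-98835092, plus strand): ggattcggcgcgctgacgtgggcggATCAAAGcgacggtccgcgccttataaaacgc
Fzd4 (chr7:89404166-89404221, plus strand): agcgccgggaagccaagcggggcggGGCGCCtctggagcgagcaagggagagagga
Lef1 (chr3:131110081-131110136, plus strand): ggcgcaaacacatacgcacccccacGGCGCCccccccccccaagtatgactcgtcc
The values of these 6 genes, given below with their classes, had overlapping groups in each case. Wnt11 also holds GGCGCC outside the stretch shown. Wnt2, not shown here, holds GGCGCC too and is 1 of the 2 members whose groups did not overlap. Whether a motif goes with a difference was not tested.

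Of the ligands, Wnt4, Wnt5b, Wnt9a, Wnt10a and Wnt10b lay above even the 99th percentile on all 6 arrays. Wnt4, which muscle fibres supply to hold stem cells quiescent, stood at 7.24, 7.31 and 7.13 with BMP6 and 7.03, 7.40 and 7.09 with vehicle. Its second probe set, not used in the tests, gave a difference of 0.13 (SE 0.08). Wnt9a, a ligand known from joint formation, stood at 7.50, 7.34 and 7.18 with BMP6 and 7.26, 7.27 and 7.14 with vehicle. Wnt10a, known for its role in teeth and skin appendages, stood at 7.16, 7.04 and 6.92 with BMP6 and 7.11, 7.01 and 6.80 with vehicle. In none of these 3 genes were the groups separate, and the differences between BMP6 and vehicle were 0.05, 0.12 and 0.07.

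Wnt10b, a canonical ligand that keeps precursors from adipogenic fate, stood at 6.49, 6.59 and 6.19 with BMP6 and 6.19, 6.27 and 6.34 with vehicle. Replicates 1 and 2 were higher with BMP6 and replicate 3 was lower, with differences of 0.29, 0.32 and -0.14. The fitted difference was 0.16 (SE 0.11, limma adjusted p = 1). Wnt5b, a close relative of the polarity ligand Wnt5a, stood at 6.64, 6.77 and 6.70 with BMP6 and 6.85, 6.88 and 6.54 with vehicle. Its vehicle values enclosed all 3 BMP6 values, and the difference was -0.05 (SE 0.10).

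Further ligands lay between both reference levels on some or all arrays. Wnt11, which acts mostly through polarity signalling, had the lowest p among ligands and stood at 6.13, 6.07 and 6.02 with BMP6 and 5.91, 6.04 and 5.80 with vehicle. The BMP6 values were higher within each replicate, by 0.21, 0.03 and 0.23, but BMP6 replicate 3 lay below vehicle replicate 2. The fitted difference of 0.16 (SE 0.08, 95% interval of the fold 0.98 to 1.27) had a limma adjusted p of 1. Wnt2, known from lung development, stood at 5.75, 5.77 and 5.71 with BMP6 and 5.82, 5.83 and 5.88 with vehicle. It was the only ligand whose groups did not overlap, all BMP6 values being the lower, over a span of -0.10 in the means (SE 0.07, limma adjusted p = 1). The same separation, in either direction, was found for 1554 of all genes (7.71%) and for 2 of the 44 members.

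Wnt3a, the ligand most used to switch on canonical signalling in culture, stood at 6.15, 6.04 and 6.08 with BMP6 and 6.25, 6.32 and 6.07 with vehicle. Wnt6, a ligand of epithelia and somites, stood at 6.50, 6.15 and 6.17 with BMP6 and 6.39, 6.34 and 6.18 with vehicle. Wnt7b, known from lung and bone, stood at 6.22, 6.33 and 6.15 with BMP6 and 6.24, 6.38 and 6.22 with vehicle. The groups overlapped in all of them, and the differences were -0.12, -0.03 and -0.05. Wnt9b, needed for kidney tubules, stood at 6.18, 6.18 and 6.06 with BMP6 and 6.11, 6.24 and 6.06 with vehicle, a difference of 0.00. Wnt16, known from bone, stood at 5.89, 5.50 and 5.68 with BMP6 and 5.83, 5.92 and 5.55 with vehicle, and its widest gap within a replicate, -0.42 in replicate 2, was not seen in the other two.

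Wnt3, Wnt8a and Wnt1 passed the 95th percentile on 5, 2 and 1 of 6 arrays. Wnt3, needed for gastrulation, stood at 5.56, 5.55 and 5.68 with BMP6 and 5.60, 5.59 and 5.67 with vehicle. Wnt8a, an embryonic ligand, stood at 5.56, 5.45 and 5.74 with BMP6 and 5.62, 5.47 and 5.35 with vehicle, with BMP6 replicate 3 the highest. Wnt1, the founding member of the family, stood at 5.29, 5.34 and 5.50 with BMP6 and 5.58, 5.27 and 5.46 with vehicle. These 3 genes hovered at the reference level in both groups. Wnt2b, Wnt5a, Wnt7a and Wnt8b were above it on no array. Wnt7a, which drives the symmetric expansion of muscle stem cells when supplied to them, lay between 4.90 and 5.39 over the 6 arrays, and Wnt5a between 4.82 and 5.11. At such levels a difference would be compressed, so the absence of a call says little about them.

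Position in the genome pairs several ligands. In the RefSeq gene table, 4 pairs of members are direct neighbours among protein-coding genes: Wnt6 with Wnt10a, Wnt3a with Wnt9a, Wnt3 with Wnt9b, and Wnt1 with Wnt10b. Both genes of a pair were detected for Wnt6 and Wnt10a and for Wnt3a and Wnt9a. In the others Wnt9b and Wnt10b were detected, while Wnt3 passed on 5 arrays and Wnt1 on 1. At the 99th percentile on all 6 arrays, 1 gene of each of 3 pairs remained, Wnt10a, Wnt9a and Wnt10b, and neither Wnt3 nor Wnt9b did.

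Frizzled receptors are membrane-spanning proteins whose extracellular cysteine-rich domain binds the lipid of the Wnt. Of the 10, all but Fzd9 and Fzd10 lay above the 99th percentile and above the median of all genes on each of the 6 arrays. Fzd1, close in sequence to Fzd2 and Fzd7, had the lowest p of all members and stood at 7.75, 7.74 and 7.71 with BMP6 and 7.65, 7.57 and 7.50 with vehicle. All 3 BMP6 values were above all vehicle values, with differences of 0.10, 0.17 and 0.21 within replicates. The fitted difference was 0.16 (SE 0.07), a fold of 1.12 with a 95% interval of 1.00 to 1.25 and a limma adjusted p of 1, or 0.854 with the replicate block.

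Fzd7, the receptor through which Wnt7a acts on muscle stem cells, stood at 7.53, 7.38 and 7.30 with BMP6 and 7.53, 7.16 and 7.19 with vehicle. Both arrays of replicate 1 were the highest, and the groups overlapped. Fzd4, which also receives Norrin in blood vessels, stood at 7.84, 7.69 and 7.89 with BMP6 and 7.90, 7.69 and 7.95 with vehicle. Fzd2, a receptor of Wnt5a, stood at 7.15, 7.32 and 6.88 with BMP6 and 7.29, 7.08 and 6.89 with vehicle. The differences of these 3 receptors were 0.11, -0.04 and 0.03, and the promoter of Fzd4 is the one shown above with a SMAD element.

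Fzd3, known from axon guidance and cell polarity, differed little within replicates and stood at 6.89, 6.97 and 6.96 with BMP6 and 6.86, 6.96 and 6.94 with vehicle. Fzd5, needed for Paneth cell maturation, stood at 6.95, 6.86 and 6.94 with BMP6 and 7.01, 6.71 and 6.92 with vehicle. Fzd6, known from hair patterning, stood at 6.63, 6.52 and 6.47 with BMP6 and 6.46, 6.63 and 6.56 with vehicle. BMP6 and vehicle values were interleaved in all of them, and the differences were 0.02, 0.04 and -0.01. Fzd8, which binds Wnt3a tightly, stood at 6.88, 7.07 and 6.93 with BMP6 and 7.24, 7.09 and 6.90 with vehicle, a difference of -0.12 (SE 0.10, limma adjusted p = 1). Most of it came from replicate 1, where the difference was -0.36, against -0.02 and 0.03 in the others.

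Fzd9, deleted in the human Williams syndrome region, stood at 6.43, 6.19 and 6.30 with BMP6 and 6.18, 6.34 and 6.06 with vehicle, detected but over the 99th percentile on 4 arrays. Fzd10 stood at 6.00, 5.87 and 5.71 with BMP6 and 5.97, 6.08 and 5.46 with vehicle. Vehicle replicate 3 was its lowest value and the only array on which it fell short of the 95th percentile. The differences of both, 0.11 and 0.02, were within the spread between replicates.

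The targets and feedback genes were taken by name, and whether their levels follow the canonical branch in these cells was not tested. Axin2, the feedback scaffold of the destruction complex and the usual reporter of beta-catenin activity, stood at 6.57, 6.48 and 6.40 with BMP6 and 6.59, 6.40 and 6.51 with vehicle. The groups overlapped, the difference was -0.02 (SE 0.08), and the 95% interval of the fold ran from 0.87 to 1.13. Lef1 and Tcf7 encode HMG-box factors that carry beta-catenin to DNA. Lef1 stood at 6.64, 6.34 and 6.20 with BMP6 and 6.52, 6.12 and 6.14 with vehicle, and Tcf7 stood at 6.91, 6.82 and 6.70 with BMP6 and 7.07, 6.74 and 6.75 with vehicle. Replicate 1 was the highest in both genes and both treatments. Lef1 had the widest upper bound of all members, with a difference of 0.13 (SE 0.13) and a 95% interval of the fold from 0.89 to 1.35.

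Inhibitors that act inside the cell or at its surface were detected, and none was called. Nkd1 and Nkd2 bind Dishevelled and blunt the signal. Nkd1 stood at 6.86, 6.64 and 6.52 with BMP6 and 6.67, 6.79 and 6.42 with vehicle, and Nkd2 stood at 6.80, 6.75 and 6.78 with BMP6 and 6.67, 6.64 and 6.84 with vehicle. Znrf3, a ubiquitin ligase that removes Frizzled from the membrane, stood at 7.70, 7.97 and 8.00 with BMP6 and 7.80, 7.83 and 7.92 with vehicle. Neither treatment was higher throughout in any of these 3 genes. Apcdd1, a membrane inhibitor, stood at 6.54, 6.49 and 6.33 with BMP6 and 6.56, 6.36 and 6.37 with vehicle. The differences of Nkd1, Nkd2, Znrf3 and Apcdd1 lay between 0.03 and 0.06.

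Secreted inhibitors come next. Notum, the enzyme that strips the lipid from Wnt, had the lowest p among targets and stood at 6.05, 5.73 and 5.76 with BMP6 and 5.96, 6.04 and 5.97 with vehicle. BMP6 was lower in replicates 2 and 3 and higher in replicate 1, with a fitted difference of -0.14 (SE 0.10, limma adjusted p = 1). Dkk1, which captures LRP6, stood at 5.90, 5.97 and 5.83 with BMP6 and 6.19, 5.86 and 5.82 with vehicle. Vehicle replicate 1 was the highest of its arrays, and the difference was -0.06. Wif1, which binds Wnts outside the cell, stood at 5.64, 5.60 and 5.79 with BMP6 and 5.73, 5.84 and 5.49 with vehicle, a difference of -0.01.

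Sfrp2, a secreted decoy related to Frizzled that stromal cells of muscle also make, stood at 5.74, 5.68 and 5.52 with BMP6 and 5.85, 5.81 and 5.63 with vehicle. It was lower with BMP6 within each replicate, with differences of -0.11, -0.14 and -0.11, yet the groups overlapped and the fitted difference was -0.12 (SE 0.09). Of 8 markers of fibro-adipogenic cells 6 were detected and 0 were called. Their difference was negative in 7 and positive in 1. The groups did not overlap in 4 of the 8, all lower with BMP6, against 7.71% of all genes in either direction. At an unadjusted limma p under 0.05 there were 2, both lower, against 3.17% of all genes. The mean log2 level of all 8 markers, which did not overlap between the groups, ran from 5.80 to 6.04 with BMP6 and from 6.05 to 6.13 with vehicle. Their summed linear level, which overlapped between the groups, ran from 531 to 687 with BMP6 and 674 to 715 with vehicle. Lum was above the 95th percentile on no array, and the part of these markers in the values of Sfrp2 was not tested.

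Sp5, a zinc-finger factor that follows beta-catenin closely and whose promoter holds the core shown above, was over the 95th percentile on 4 arrays and stood at 5.52, 5.66 and 5.67 with BMP6 and 5.53, 5.46 and 5.54 with vehicle. Its difference was 0.11 (SE 0.08, limma adjusted p = 1), and BMP6 replicate 1 lay below vehicle replicates 1 and 3. Lgr5 and Lgr6 are receptors of the R-spondins, which stabilise Frizzled. Lgr6 stood at 6.20, 6.15 and 5.88 with BMP6 and 6.16, 6.10 and 5.93 with vehicle, whereas Lgr5, with a mean of 4.86 over the 6 arrays, reached the reference level on none. Ccn4, a secreted matricellular protein first found as a Wnt1-induced gene, stood at 8.87, 8.94 and 8.94 with BMP6 and 8.91, 8.94 and 9.07 with vehicle. It lay far above both reference levels on every array, and its difference was -0.06 (SE 0.08).

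Over all 44 members the difference between BMP6 and vehicle ran from -0.14 to 0.16 on the log2 scale, or from 0.907-fold to 1.12-fold. It was positive in 24 and negative in 20, with a median of 0.0098, where the median of all genes was -0.0013. The median size without sign was 0.0551 in members and 0.0567 in all genes. For each of the 44 the 95% interval of the fold, taken singly, lay within a 1.5-fold change in either direction, which held for 98.8% of all genes. The highest upper bound was 1.35-fold and the lowest lower bound 0.764-fold, and for dim genes these intervals describe compressed values.

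The 5 genes taken as a reference for the BMP response were higher with BMP6 on the same arrays. They were chosen with earlier results of these data known, so their calls are no independent check. Smad7, the inhibitory SMAD that BMP signals induce as feedback, stood at 9.09, 8.99 and 8.97 with BMP6 and 7.37, 7.17 and 7.34 with vehicle. Id1, an inhibitor of bHLH factors, stood at 11.29, 11.27 and 11.35 with BMP6 and 9.64, 9.61 and 9.92 with vehicle. The groups were far apart in both. The differences were 1.72 and 1.58, with 1.52 for Id3, 1.76 for Hes1 and 0.94 for Smad6, and all 5 were called (limma adjusted p of 3.93e-05 for Smad7 and 0.0403 for Smad6). Smad6 was not called under 8 of 16 alternative settings.

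**Figure D2:**
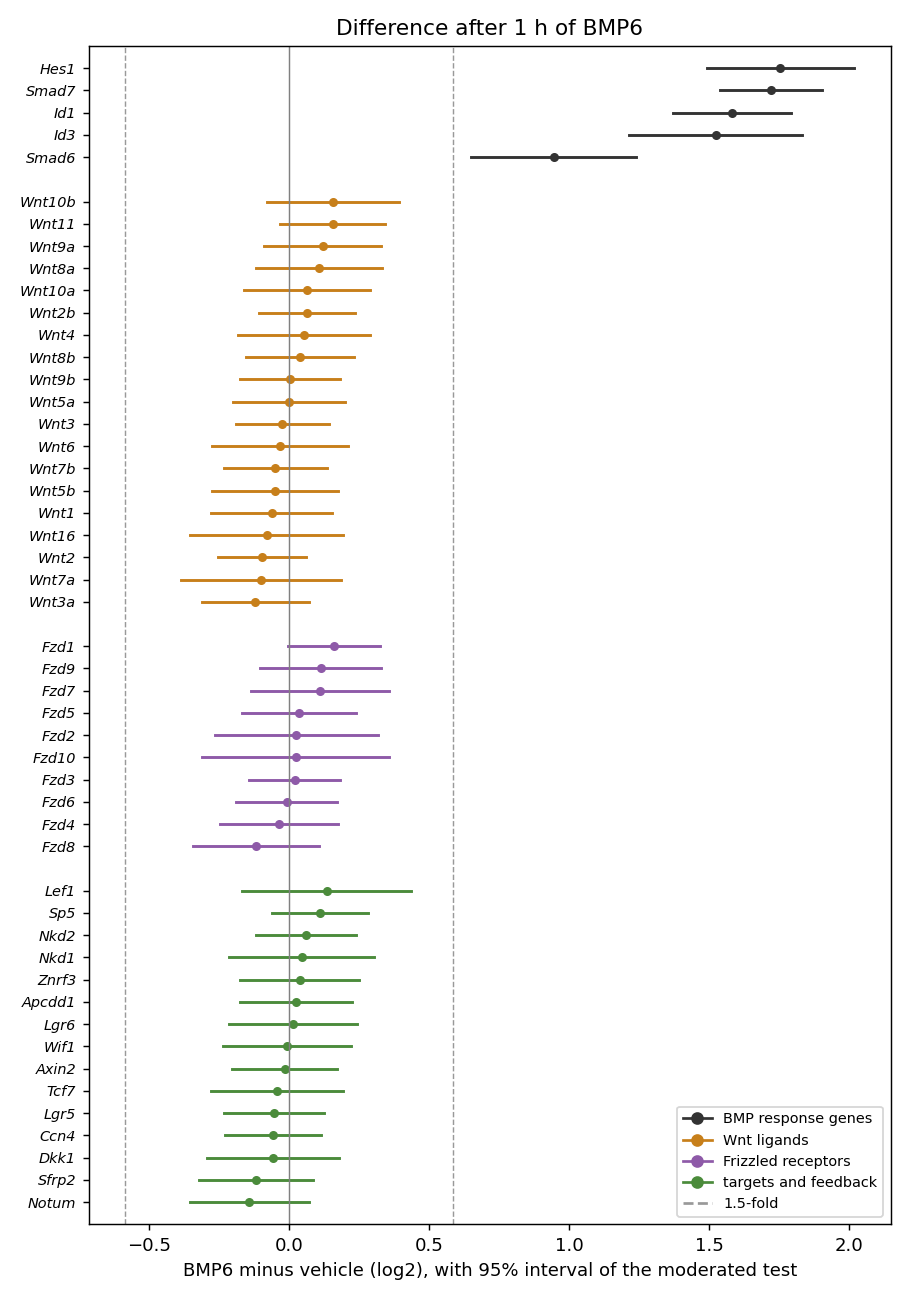
Difference between BMP6 and vehicle (log2, horizontal axis) for the 44 genes by class and for 5 BMP response genes, with the 95% interval of the moderated test as a line. The dashed lines mark a 1.5-fold change; the intervals of all 44 lie between them, and those of the 5 response genes lie above.

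**Figure D3:**
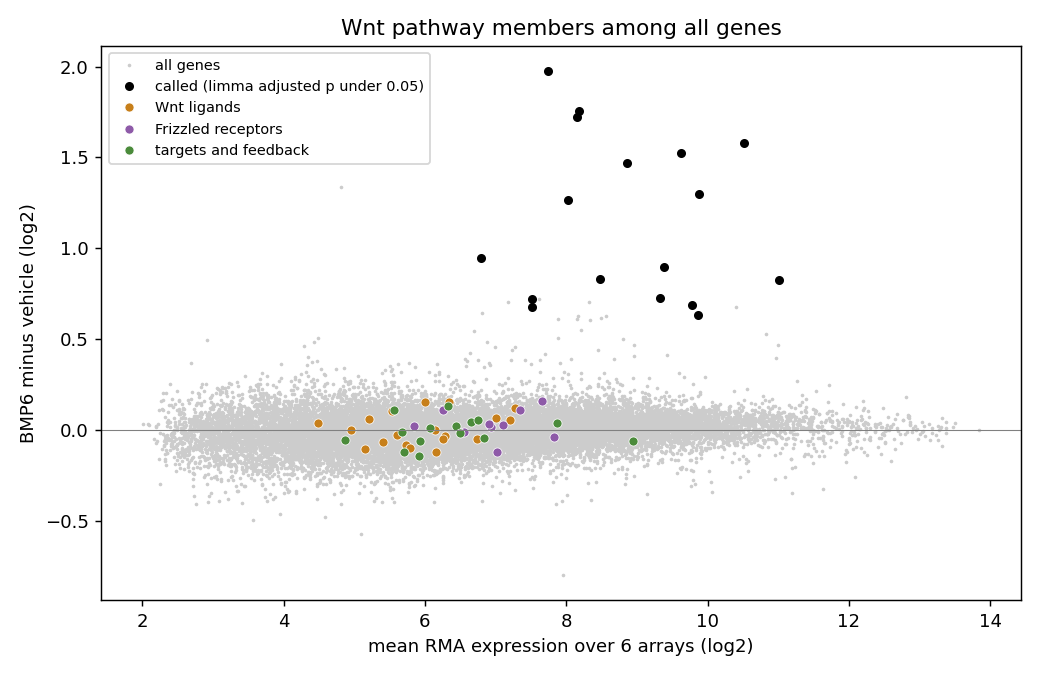
Difference between BMP6 and vehicle (log2) against mean expression over the 6 arrays (log2) for 20163 genes in grey, the 17 called genes in black and the 44 members in colour. The members lie between -0.14 and 0.16, inside the grey cloud.

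The rest of the pathway held no call. Of 86 further genes of Wnt signalling, 72 (83.7%) were detected, against 64.5% of all genes. With or without the replicate block 0 of them were called, where 0.0843% of all genes were called in the main setting. At that share a list of this size would rarely hold a call. At an unadjusted limma p under 0.05 there was 1 of the 86, against 3.17% of all genes. That count was 2 with the replicate block, 5 without vehicle replicate 3 and 0 without vehicle replicate 1. The gene of the main setting was Myc, a growth-promoting transcription factor that beta-catenin and many other signals control. Myc stood at 11.99, 11.93 and 11.94 with BMP6 and 12.33, 12.06 and 12.25 with vehicle. Its groups did not overlap, and its difference of -0.25 (SE 0.09) had a limma adjusted p of 1, or 0.657 with the replicate block. Such separation was found for 5 of the 86, 4 higher and 1 lower with BMP6, against 7.71% of all genes in either direction. The other 14 genes of the list of beta-catenin targets lay between -0.13 (T, a mesoderm factor above the 95th percentile on no array) and 0.09.

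All 12 co-receptors and other Wnt receptors were detected, and 0 were called. Kremen1, which works with Dkk1 to remove LRP6, had a difference of 0.15 (SE 0.09), and Lrp6 itself one of 0.10 (SE 0.08). Both genes needed to release Wnt were detected: Porcn, the acyltransferase that attaches the lipid, at 6.97, 6.96 and 6.89 with BMP6 and 6.93, 6.75 and 6.80 with vehicle, and Wls, the carrier to the cell surface, at 8.19, 8.31 and 8.33 with BMP6 and 8.04, 8.19 and 8.48 with vehicle. Their differences were 0.11 and 0.04. Of 15 R-spondins and further secreted inhibitors 6 were detected and 0 were called. Draxin and Dkkl1 had the lowest p there, with differences of -0.18 (SE 0.14) and -0.09 (SE 0.08). With 1 array left out these ran from -0.314 to -0.0376 for Draxin and from -0.135 to -0.0336 for Dkkl1.

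Inside the cell the signal runs through the destruction complex to the nucleus. Of 20 genes of the destruction complex and its transducers 19 were detected and 0 were called. Ctnnb1, which encodes beta-catenin, stood at 11.46, 11.41 and 11.42 with BMP6 and 11.25, 11.39 and 11.34 with vehicle. It was among the 5 of 86 genes whose groups did not overlap, but the difference was 0.11 (SE 0.07, limma adjusted p = 1). Cby1, which binds and restrains beta-catenin, differed by -0.12 (SE 0.08). All 11 nuclear partners were detected and 0 called, with Pygo1, a chromatin adaptor, at a difference of 0.09 and Tcf7l2 at -0.08. Of 11 genes of the planar polarity branch 10 were detected and 0 called, with Prickle1 at -0.09 and Daam2, above the reference level on no array, at 0.08.

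The arrays were also compared by replicate number. The limma F test of replicate number, with treatment in the model, called no member at an adjusted p under 0.05 and 79 of all genes (0.392%). At an unadjusted p under 0.05 it gave 10 of 44 members (22.7%), against 14.0% of all genes (2816). By class these were 2 ligands, 4 receptors and 4 targets.

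Lef1 had the lowest p of them, with means of 6.58, 6.23 and 6.17 for replicates 1, 2 and 3 (limma adjusted p = 0.177). It passed when only genes above the 95th percentile on at least 3 arrays were tested (adjusted p = 0.0322), and not without the third pair of arrays (adjusted p = 0.461). The other 9 were Fzd10, Wnt7a, Fzd2, Fzd7, Lgr6, Wnt10a, Nkd1, Tcf7 and Fzd4. In 9 of the 10, Fzd4 being the exception, replicate 1 had the highest mean of the 3 numbers and replicate 3 the lowest. These genes were chosen after their values were seen, and the share of all genes with this order was not counted. The median of all genes was also lowest on the replicate 3 array of each group, at 6.39 with BMP6 and 6.38 with vehicle. Differentiation genes also differed by replicate number: Myog, the differentiation factor myogenin, stood at 8.65, 8.33 and 6.85 with BMP6 and 8.75, 7.94 and 7.03 with vehicle, and the mean log2 level of 8 differentiation markers ran from 7.39 to 8.42 with BMP6 and from 7.41 to 8.36 with vehicle. Their part in the values of these members was not tested.

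**Figure D4:**
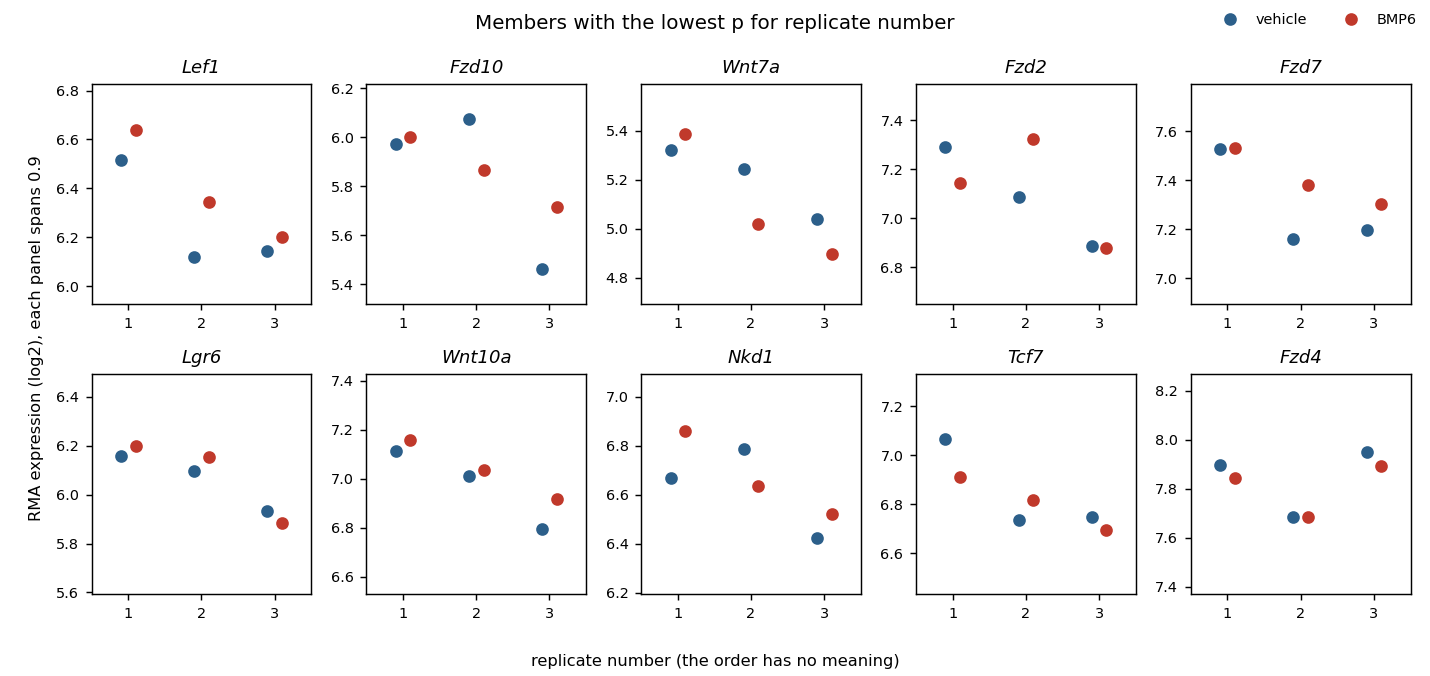
RMA expression (log2) of the 10 members with an unadjusted p under 0.05 for replicate number, by replicate number, with vehicle in blue and BMP6 in red; each panel spans 0.9 on the log2 scale. Same-numbered arrays lie close together in most panels, which the choice of genes by this p favours. None of the 10 passed the adjusted threshold over all genes.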

How the data were processed

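The deposited tables give log2 expression for every probe set on every array, computed by the authors through RMA in oligo, per the submitters' processing notes. RMA corrects background, gives all arrays 1 distribution and summarises probes, so a shift of most transcripts would not be seen and dim differences are compressed. Neither the array type nor software versions, annotation source or genome build were found (not given in the sources used here). Each gene was represented by its probe set with the highest mean over the 6 arrays, leaving 20163 genes.

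The treatment comparison used limma 3.58.1 (R 4.3.3, lmFit and eBayes, two-sided), with Benjamini-Hochberg adjustment over all 20163 genes. The same fit was run on simulated data with independent noise and added changes larger than any difference of a member. That run does not give the power for differences of the size seen in members. Replicate number was tested by limma's F test with treatment in the model. Labels call the replicates biological. Replicates 1 and 2 share a mouse across treatments in the source names and the third pair does not, while the column headers give each pair 1 code. Deviations of same-numbered arrays from their group means correlated over genes at 0.315, 0.0475 and 0.434 for numbers 1, 2 and 3. Between BMP6 and vehicle arrays of different numbers the correlations ran from -0.439 to 0.179. Because the source names split the third pair and number 2 correlated little, pairing was not taken as established. The replicate block is an alternative.

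Members and gene lists were chosen with earlier results of these data known. Arrays of detected members are given in full, and differences with SE for members whose groups do not overlap and the 2 lowest p of each class. Of the other pathway genes, those with an unadjusted p under 0.05 and the 2 lowest p of each list are named. Further genes named in the text were chosen after their values were seen. Rnf43 and Dvl2 had no probe set under that name. Symbols of all 44 members matched the RefSeq table by Entrez identifier. The alternatives were blocks by replicate or mouse, arrays left out, filters, probe set choice, priors, centring and the second deposited table.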

Additional observations from a re-analysis of the deposited data

How the results depend on the processing

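Under 16 alternatives to the treatment comparison 0 members were called, the replicate block included, and 0 of the other pathway genes were called with the replicate block or with any 1 array left out. The count over all genes was 17 in the main setting and ran from 7 to 32. The lowest adjusted p of any member under any setting was 0.729, without vehicle replicate 3. At an unadjusted p under 0.05 there were 0 members in the main setting and under 4 alternatives, and 1 or 2 under 12. The replicate number test called 1 member, Lef1, when only genes above the 95th percentile on at least 3 arrays were tested, and 0 under the other 4 alternatives. Over all genes that test called 79, or between 19 and 338 under its alternatives. The count of detected members was 34, and fell to 20 at the 99th percentile and 17 against the median of all genes. It was 31 with olfactory receptor genes alone and 34 to 35 with 1 array left out. With 1 array left out the difference of Wls ran from -0.060 to 0.162 and that of Myog from -0.402 to 0.583, changing sign. Of 29 genes followed through these settings, 16 had a difference that moved by over 1.5 times with 1 array left out, and none of the 16 was called. The filter tested 13815 genes in place of 20163, and the cause of the other changes was not tested. Levels near the reference compress a difference, which limits what can be read from the 10 members not detected on all arrays.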
